A study of Mus musculus with 6 samples.

Results

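The Hox genes were measured in bulk RNA from pieces of mouse distal colon lying next to tumours, and were used to compare the pieces in their position along the gut. All protein-coding genes named Hoxa, Hoxb, Hoxc or Hoxd with a number were taken, with no threshold on their values. The annotation holds 39 such genes, and 29 of them were among the 21374 genes with values: 11 of 11 in the Hoxa cluster, 9 of 10 in Hoxb, 1 of 9 in Hoxc and 8 of 9 in Hoxd. No value was analysed here for Hoxb1, Hoxd1, Hoxc5, Hoxc6, Hoxc8, Hoxc9, Hoxc10, Hoxc11, Hoxc12 and Hoxc13. The lowest total in the table was 10 reads over the 6 libraries.

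Hox proteins are transcription factors that bind DNA through a homeodomain and give cells their address along the head-to-tail axis. In mammals their genes lie in clusters, and their order along the chromosome follows the order of their domains along the body: low-numbered paralog groups act towards the head and high-numbered groups towards the tail. In the hindgut the group 13 genes are the most posterior; Hoxa13 and Hoxd13 are needed to form the hindgut, its muscle and the anal sphincter, and Hoxb13 marks the distal colon, the rectum and the prostate.

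The libraries came from male C57BL/6 mice, 3 labelled wild type and 3 labelled Otud1-/- (mice lacking the deubiquitinase Otud1). Both groups received the colon carcinogen azoxymethane at 6 weeks of age and then 3 rounds of dextran sulfate sodium in the drinking water (1.5%, 4 days each), which injures the colonic lining, with 14 days of plain water after each round. The colon was removed on day 81, when the mice were 18 weeks old, and the tumours were cut away, so all 6 libraries are from treated tissue and no untreated colon is compared. Which part of Otud1 was deleted, and whether each library is 1 animal, is not given in the sources used here. What a p-value measures here is the variation from library to library, some of which may be technical.

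Each library held 15300937 to 19406407 reads assigned to genes. On the first principal component, which took 38.8% of the variance, wild type 1 (-86.5) and Otud1-/- 1 (83.3) stood apart from the other libraries. Wild type 2 and 3 lay at -22.0 and -25.8, and Otud1-/- 2 and 3 at 28.2 and 22.7, so the labels did not overlap on it. Otud1 itself went against the labels. Its normalised read count (reads divided by the library's size factor) was 111, 45.1 and 48.9 in the libraries with the wild type label (1 to 3), then 141, 150 and 208 in those with the Otud1-/- label (1 to 3). Every library labelled Otud1-/- lay above every library labelled wild type (log2 change 1.37 ± 0.35 SE, limma adjusted p = 0.0934; exact two-sided permutation p = 0.1, the smallest that 3 against 3 libraries can give). With DESeq2 it passed (adjusted p = 0.0136), and over all settings its adjusted p ranged from 0.0050 to 0.258. All names below are the labels of the libraries, and every change is the libraries labelled Otud1-/- minus those labelled wild type.

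The results turn on the 3 measured genes of group 13. Their homeoboxes, the stretch of 180 bases that encodes the homeodomain, are shown to let the reader see how alike and how distinct these paralogs are; capitals mark codons 42 to 58, the recognition helix that lies in the major groove of DNA. They were read from GENCODE vM21 transcripts (GRCm38) and lie at chr6:52258928-52259107 on the minus strand (Hoxa13), chr11:96196020-96196199 on the plus strand (Hoxb13) and chr2:74669930-74670109 on the plus strand (Hoxd13), each within 1 exon.
Hoxa13: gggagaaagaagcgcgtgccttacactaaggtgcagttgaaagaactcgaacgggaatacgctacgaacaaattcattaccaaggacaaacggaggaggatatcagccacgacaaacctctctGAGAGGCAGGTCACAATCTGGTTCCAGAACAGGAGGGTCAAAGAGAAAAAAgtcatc
Hoxb13: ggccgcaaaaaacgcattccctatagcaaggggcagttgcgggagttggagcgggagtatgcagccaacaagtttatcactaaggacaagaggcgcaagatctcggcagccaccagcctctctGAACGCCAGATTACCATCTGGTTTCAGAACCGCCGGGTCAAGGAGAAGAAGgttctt
Hoxd13: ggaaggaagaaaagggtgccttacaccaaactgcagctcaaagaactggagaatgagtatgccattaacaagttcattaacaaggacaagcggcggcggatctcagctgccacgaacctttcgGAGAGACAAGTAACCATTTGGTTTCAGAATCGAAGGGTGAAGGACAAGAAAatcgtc
Hoxd13 shared 73.9% of these bases with Hoxa13 and 67.2% with Hoxb13, and Hoxa13 shared 68.9% with Hoxb13. Hoxd9 shared 58.3% and Hoxd8 51.7% with Hoxd13. Over the annotated transcripts, the longest exact run that Hoxd13 had in common with any other Hox gene was 20 bases (with Hoxd11), that of Hoxa13 was 23 and that of Hoxb13 was 17. Among the other posterior Hoxd genes these runs were 40 bases for Hoxd9 (with Hoxb9), 29 for Hoxd11, 26 for Hoxd12 and 20 for Hoxd10. The length of the reads is not given in the sources used here.

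Within the Hoxd cluster the 5′ genes and their 3′ neighbours behaved differently between libraries (below), so the 250 bases before the RefSeq start (GRCm38.p6) of 2 genes of the variable stretch and of the neighbour next to it are shown. They are chr2:74667975-74668224 (Hoxd13), chr2:74697513-74697762 (Hoxd9) and chr2:74704365-74704614 (Hoxd8), all on the plus strand. Capitals mark TTTAT on either strand (read as ATAAA on the other), a core that group 13 proteins are known to prefer.
Hoxd13: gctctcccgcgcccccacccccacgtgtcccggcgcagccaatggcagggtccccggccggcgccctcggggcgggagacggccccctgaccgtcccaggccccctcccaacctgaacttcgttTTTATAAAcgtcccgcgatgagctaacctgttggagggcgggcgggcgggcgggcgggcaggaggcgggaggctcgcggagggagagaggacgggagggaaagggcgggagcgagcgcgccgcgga
Hoxd9: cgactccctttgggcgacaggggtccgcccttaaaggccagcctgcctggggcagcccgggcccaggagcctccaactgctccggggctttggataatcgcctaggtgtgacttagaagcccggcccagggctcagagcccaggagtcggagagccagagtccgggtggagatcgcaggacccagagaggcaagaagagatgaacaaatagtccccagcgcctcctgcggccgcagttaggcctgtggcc
Hoxd8: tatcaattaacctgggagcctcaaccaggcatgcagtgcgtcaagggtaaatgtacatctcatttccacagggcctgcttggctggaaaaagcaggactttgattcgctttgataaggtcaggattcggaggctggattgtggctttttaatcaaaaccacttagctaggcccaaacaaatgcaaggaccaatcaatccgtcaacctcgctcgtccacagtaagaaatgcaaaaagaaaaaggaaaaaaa
The Hoxd13 window held 2 matches, 1 on each strand, which overlap each other. The windows of Hoxd8, Hoxd9, Hoxd10 and Hoxd12 held 0. Hoxd11 had 2 matches in 1 of its windows and 0 in the other, Hoxd4 had 4 and Hoxd3 had 1. The table gave windows for 22 Hox genes, and 9 of their 24 windows (37.5%) held at least 1 match, against 37.3% of all 32851 windows of the same length. G and C made up 74.4% of the Hoxd13 window, 65.2% of the Hoxd9 window and 44.4% of the Hoxd8 window, against a median of 52.4% over all windows.

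All 6 pieces had a posterior Hox profile led by Hoxb13. Per kilobase of exon, Hoxb13 had the highest mean level of all Hox genes, 1743 normalised reads per kb. Hoxa7 (352), Hoxd13 (315), Hoxa13 (309), Hoxb9 (284), Hoxa10 (239), Hoxa5 (209) and Hoxa9 (181) followed. After them came Hoxa6 (89.0), Hoxa2 (49.1), Hoxd10 (46.0), Hoxa3 (40.2) and Hoxa11 (31.7), and the lowest were Hoxc4 (1.50) and Hoxd3 (0.731). Of the 29 genes, 9 had a mean normalised read count of at least 100, and 5 had a mean under 10. The order from Hoxa7 to Hoxa9 is not fixed within the spread between libraries: Hoxd13, for one, ranked 3 by its mean but lay below Hoxa9 in wild type 1 and Otud1-/- 2.

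**Figure D1:**
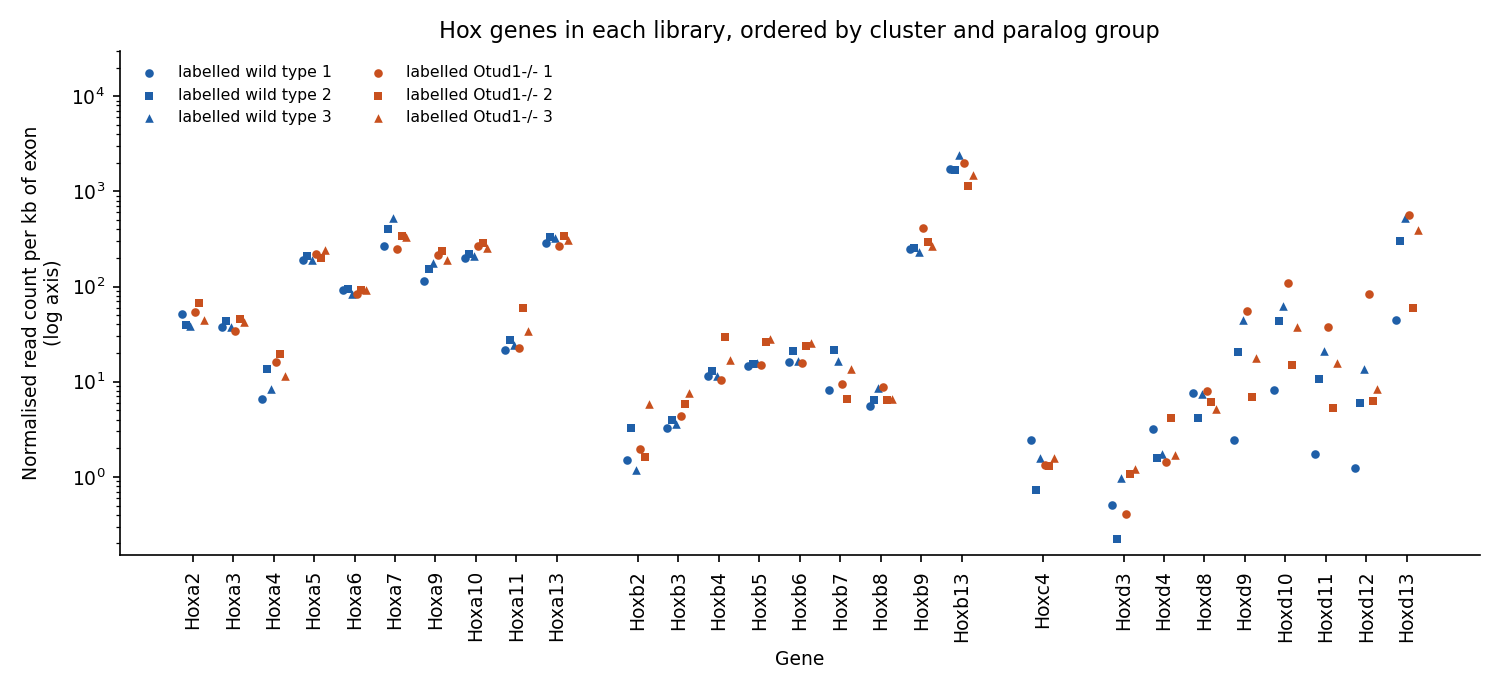
Normalised read count per kb of exon (log axis) of the Hox genes described here, ordered by cluster and paralog group; each point is 1 library, coloured by label and shaped by number. Hoxb13 is the highest gene, and the points of Hoxd9 to Hoxd13 spread widely while those of Hoxa13 lie together.

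Hoxb13 (ENSMUSG00000049604.3, chr11:96194316-96197447, GRCm38) had 3824, 3695 and 5308 normalised reads in wild type 1 to 3, then 4432, 2504 and 3307 in Otud1-/- 1 to 3. The labels overlapped, with Otud1-/- 2 the lowest library and wild type 3 the highest. Its change was -0.34 ± 0.22 (SE) on the log2 scale (limma adjusted p = 0.440). Hoxa13 (ENSMUSG00000038203.18, chr6:52257694-52260880) was the steadiest of the group, with 705, 817 and 797 in wild type 1 to 3 against 659, 843 and 758 in Otud1-/- 1 to 3. Its highest value was 1.28 times its lowest, and its change was -0.04 ± 0.13 (limma adjusted p = 0.893), which became 0.17 after scaling to total reads.

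Hoxd13 varied far more than Hoxa13, and not by label. Hoxd13 (ENSMUSG00000001819.4, chr2:74668310-74671599) had 111, 742 and 1294 normalised reads in wild type 1 to 3, then 1414, 146 and 981 in Otud1-/- 1 to 3. It was low in wild type 1 and Otud1-/- 2 and at least 742 in the other 4 libraries, so each label held 1 low library. The highest value was 12.8 times the lowest. The low values rested on 105 and 130 reads, with exact 95% Poisson intervals of 90.6 to 134 and 122 to 174 normalised reads, while the lowest bound among the other 4 libraries was 691. These intervals cover counting error only. The change between the labels was 0.31 ± 1.37 (limma adjusted p = 0.931), a standard error larger than the change. In a bulk sample, fewer cells that express a gene and less RNA of it per cell cannot be told apart.

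The spread of Hoxd13 within labels was wide for a gene of its level. Of the 5042 genes with a mean between 0.5 and 2 times that of Hoxd13, 0.218% had a within-label SD (log2) as large. The same share was 54.9% for Hoxa13 and 11.7% for Hoxb13, each against genes of its own level. Relative to Hoxa13 in the same library, Hoxd13 had 0.157, 0.908 and 1.62 reads per Hoxa13 read in wild type 1 to 3, then 2.15, 0.174 and 1.29 in Otud1-/- 1 to 3. The ratio of these group 13 paralogs does not depend on the scaling of the libraries, and it was lowest in the same pair of libraries.

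The other 5′ genes of the cluster were low in the same libraries as Hoxd13. Hoxd11 (chr2:74679557-74687016) had 7.38, 45.1 and 87.7 normalised reads in wild type 1 to 3, then 160, 22.5 and 65.6 in Otud1-/- 1 to 3. Hoxd10 (chr2:74691924-74695105) had 14.8, 78.1 and 114, and 199, 27.0 and 68.6, in the same order. Hoxd9 (chr2:74697727-74700208) had 5.27, 44.2 and 94.8, and 117, 14.6 and 38.3. In each of these 3 genes, as in Hoxd13, wild type 1 was the lowest library, Otud1-/- 2 the second lowest and Otud1-/- 1 the highest. The highest value was 21.6 times the lowest for Hoxd11, 13.5 times for Hoxd10 and 22.2 times for Hoxd9. Wild type 1 held only 7, 14 and 5 reads of these genes, so its values are imprecise. Its intervals were 2.97 to 15.2 for Hoxd11, 8.07 to 24.8 for Hoxd10 and 1.71 to 12.3 for Hoxd9. They stay under the lower bounds of 33.3, 62.2 and 32.5 in wild type 2. They overlap the intervals of Otud1-/- 2 (13.7 to 34.8, 17.3 to 40.2 and 7.79 to 25.0), as those of Hoxd13 do. The order of wild type 1 and Otud1-/- 2 is therefore not resolved at this depth. For Hoxd11, Otud1-/- 2 also overlaps wild type 2.

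Hoxd12 (chr2:74675013-74677705) kept the extremes of this pattern but not its middle. It had 3.16, 15.05 and 34.7 normalised reads in wild type 1 to 3, then 213, 15.7 and 21.2 in Otud1-/- 1 to 3. Otud1-/- 1, with 250 reads of the gene, stood far above every other library, of which none had more than 34, and wild type 1, with 3 reads, was again the lowest. Otud1-/- 2 (15.7, interval 8.61 to 26.4) and wild type 2 (15.05, interval 8.60 to 24.4) cannot be ordered at this depth.

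The pattern ended between Hoxd9 and Hoxd8. Hoxd8 (chr2:74704615-74707933), the next gene towards the 3′ end, had 21.1, 11.3 and 20.4 normalised reads in wild type 1 to 3, then 22.2, 16.9 and 14.1 in Otud1-/- 1 to 3. Wild type 1 was among its higher libraries, and its highest value was 1.97 times its lowest. Hoxd4 (9.49, 4.70 and 5.10, then 4.27, 12.4 and 5.05) and Hoxd3 (2.11, 0.940 and 4.08, then 1.71, 4.50 and 5.05) had few reads and were not low in Otud1-/- 2. These last genes share 52.3% and 62.8% of their exon bases with each other and with neighbouring transcripts, so their reads may be divided between them; Hoxd13, Hoxd12, Hoxd9 and Hoxd8 share none. Hoxd11 and Hoxd10 share 10.8% and 5.73% with Gm28309. At the other end of the cluster, Evx2, a homeobox gene next to Hoxd13, was listed at 0 in wild type 1, at 9.0 in Otud1-/- 2, and between 42.3 and 65.7 in the other 4 libraries.

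**Figure D2:**
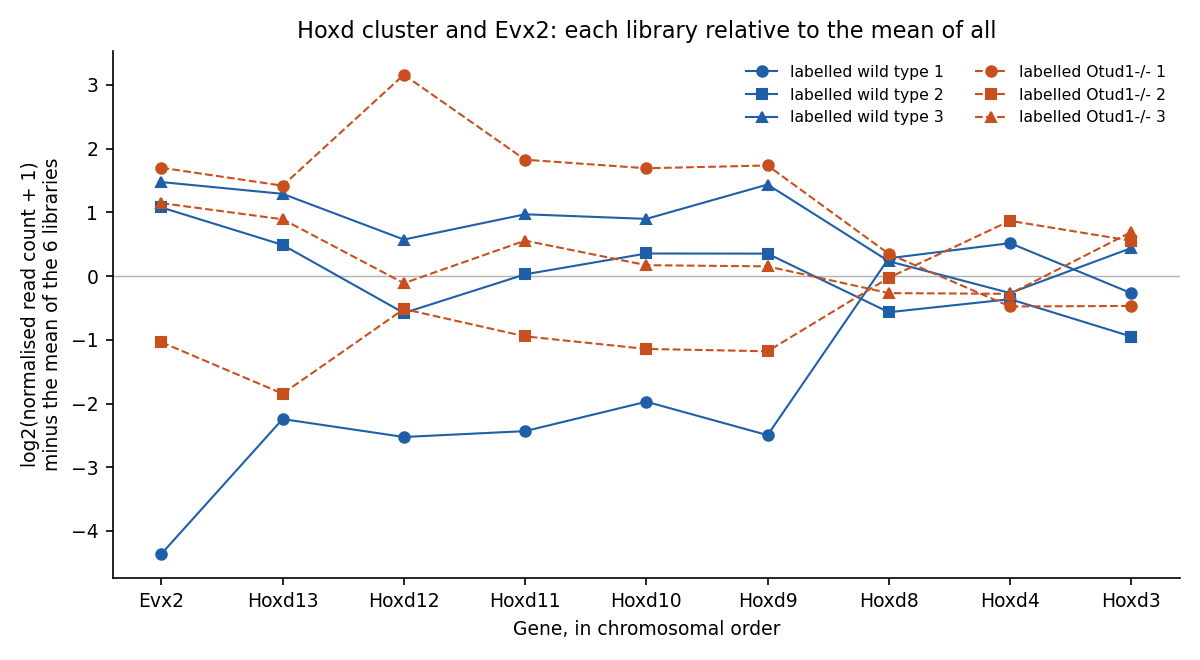
Log2(normalised read count + 1) of Evx2 and the 8 measured Hoxd genes in chromosomal order, each library shown relative to the mean of the 6 libraries. From Evx2 to Hoxd9 wild type 1 is the lowest library and Otud1-/- 1 the highest, with Otud1-/- 2 second lowest except at Hoxd12; from Hoxd8 on the lines cross.

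Among Hox genes with more than a few reads, the wide ranges were all in this stretch. Of the 24 Hox genes with a mean of at least 10, 5 (Hoxd9 to Hoxd13) had a highest value at least 10 times the lowest, against 2.63% of 16587 genes with such a mean. Wild type 1 and Otud1-/- 2 were the lowest libraries in 6 of 29 Hox genes (Hoxd9, Hoxd10, Hoxd11, Hoxd13, Hoxb7 and Hoxb8), against 6.80% of all tested genes. Hoxd9 to Hoxd13 are neighbours in 1 cluster and were noticed for their spread, so they are described without a test. Summed over Hoxd9 to Hoxd13, the normalised reads were 141, 924 and 1625 in wild type 1 to 3, then 2103, 226 and 1175 in Otud1-/- 1 to 3.

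As sums, the Hoxa and Hoxb clusters did not follow this pattern, though Hoxb7 and Hoxb8 had the same lowest libraries. For Hoxb8 that is a near tie, with 16.87 normalised reads in Otud1-/- 2 and 16.93 in wild type 2. Summed over the Hoxb cluster, the normalised reads were 4609, 4552 and 6069 in wild type 1 to 3, then 5662, 3510 and 4257 in Otud1-/- 1 to 3, most of them from Hoxb13. Hoxa reads came to 3582, 4453 and 4783, and to 4332, 5076 and 4558. Thus Otud1-/- 2, low in Hoxd and Hoxb, had the highest Hoxa sum. Hoxd supplied 2.08%, 9.46% and 13.2% of all Hox reads in wild type 1 to 3, then 17.6%, 2.94% and 11.97% in Otud1-/- 1 to 3.

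Whether the pieces differ in position was then read from the share of Hox reads in paralog groups 10 to 13, which is expected to rise towards the anus. Hoxb13 gave most of the reads of these groups in every library, such as 3824 of 5370 in wild type 1 and 2504 of 4633 in Otud1-/- 2. The share is therefore largely a measure of Hoxb13, and it was not computed without that gene. The share was 64.1%, 62.1% and 66.9% in wild type 1 to 3 (mean 64.4% ± 2.42 SD, n = 3), then 66.0%, 52.4% and 60.9% in Otud1-/- 1 to 3 (59.7% ± 6.89 SD, n = 3). The labels overlapped, and their difference of -4.62 percentage points was smaller than the pooled SD of 5.16. Otud1-/- 2 had the lowest share; without it the difference was -0.92 points. Wild type 1, which was as low as Otud1-/- 2 in the 5′ Hoxd genes, had a share inside the range of the other wild type libraries. With group 13 alone the shares were 55.4%, 52.8% and 59.1%, and 53.6%, 39.5% and 50.4%. The labels overlapped here too, but the difference of -7.96 points was larger than its pooled SD of 5.70. When group 9 was counted as posterior the difference between the labels turned to 0.87 points, because Hoxa9 and Hoxb9 were then included.

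Hoxb13 relative to Hoxa13, which is not independent of that share, gave the same order of the extremes among the libraries labelled Otud1-/-. There were 5.43, 4.52 and 6.66 Hoxb13 reads per Hoxa13 read in wild type 1 to 3, then 6.73, 2.97 and 4.36 in Otud1-/- 1 to 3. Otud1-/- 2 was again the lowest library. Thus in Otud1-/- 2 both Hoxb13 and Hoxd13 were low beside Hoxa13, whereas in wild type 1 Hoxd13 was low and Hoxb13 was not.

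**Figure D3:**
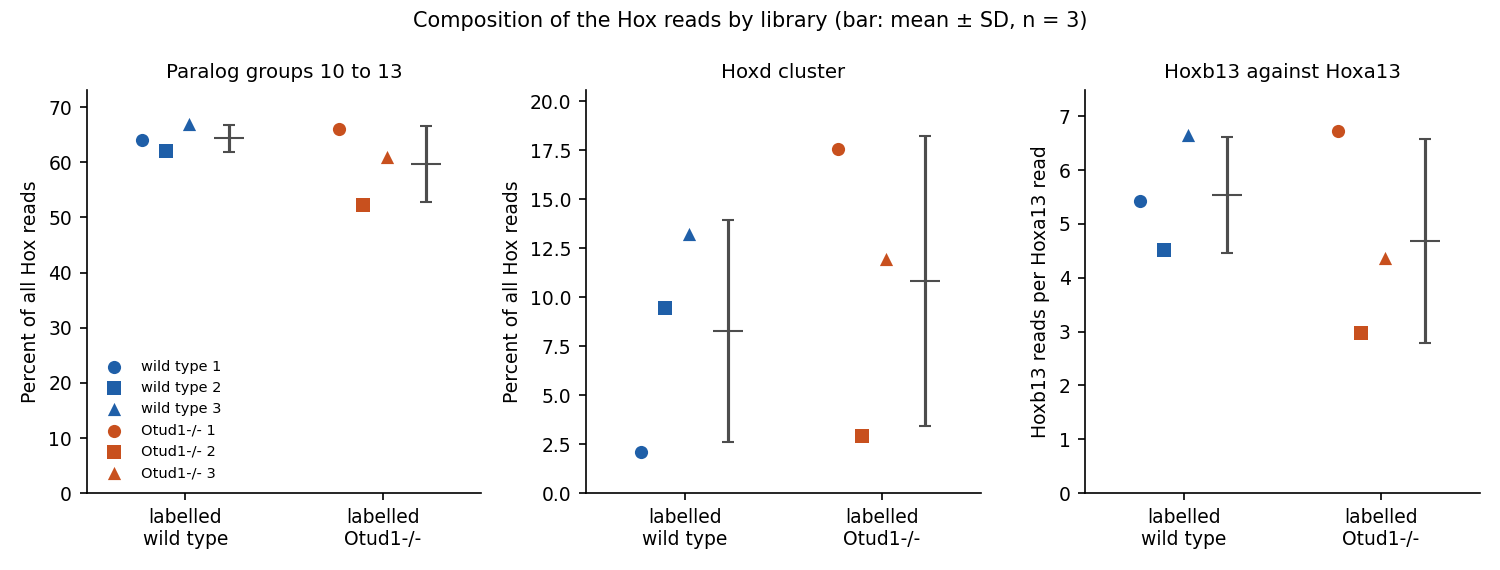
Percent of Hox reads from paralog groups 10 to 13 (left), percent from the Hoxd cluster (middle) and Hoxb13 reads per Hoxa13 read (right) in each library, with the mean and SD of the 3 libraries of each label; all axes start at 0. The labels overlap in each panel, Otud1-/- 2 is the lowest library on the left and right, and wild type 1 and Otud1-/- 2 are low in the middle.

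Between the labels, no Hox gene passed the test. Of the 29 members, 0 were called by limma at an adjusted p under 0.05, where 0.949% of the 21281 tested genes were called (202 genes; the 60 higher ones were 0.282% and the 142 lower ones 0.667% of those tested). At an unadjusted p under 0.05 there were 3 Hox genes, all with positive changes, against 19.5% of all tested genes (9.5% with positive changes). On the reads recovered from the values, edgeR called 0 of 29 Hox genes and 0.479% of all genes, with 3 members and 19.7% of all genes at an unadjusted p under 0.05. DESeq2 called 0 of the 24 to which it gave an adjusted p, where it called 8.93% of all such genes, and had 2 members (18.5% of all genes) at an unadjusted p under 0.05. With limma-voom, 0 of 29 were called (0.362% of all genes) and 2 had an unadjusted p under 0.05 (20% of all genes). Positive changes were seen in 22 members and negative ones in 7, with a median of 0.34, beside 51.7% positive and a median of 0.02 over all tested genes. Neighbouring Hox genes are not independent. Without wild type 1 and Otud1-/- 1, the libraries that stood apart, the median was 0.14, and 0 Hox genes were called, against 1.9% of all genes tested there (limma). In that setting 9 of 29 Hox genes had an unadjusted p under 0.05, against 13.9% of all genes.

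The smallest p belonged to neighbouring genes of the Hoxa cluster. Hoxa10 (ENSMUSG00000000938.11, chr6:52231197-52240854), which patterns the posterior trunk and the uterus, had 656, 719 and 678 normalised reads in wild type 1 to 3 against 874, 939 and 821 in Otud1-/- 1 to 3. Hoxa9 (ENSMUSG00000038227.15, chr6:52223100-52231089), known for its role in blood progenitors and leukaemia, had 634, 860 and 997, and 1196, 1305 and 1063. In both genes the labels did not overlap, but neither was called: the changes were 0.36 ± 0.11 (limma adjusted p = 0.136) and 0.54 ± 0.17 (limma adjusted p = 0.139). The adjusted p of Hoxa10 lay between 0.0519 and 0.353 over all settings, the lowest after scaling to total reads. Their neighbour Hoxa11 had 49.6, 63.0 and 56.1, and 52.1, 135 and 78.7, with the labels overlapping through Otud1-/- 1 (0.55, limma adjusted p = 0.418). Hoxa11 shares 35.0% of its exon bases with the antisense RNA Hoxa11os, and without a stated strand setting their reads cannot be told apart.

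In the Hoxb cluster, Hoxb9 (ENSMUSG00000020875.9, chr11:96271457-96276595) had 637, 661 and 588 normalised reads in wild type 1 to 3 against 1068, 753 and 686 in Otud1-/- 1 to 3. The labels did not overlap, and Otud1-/- 1 was the highest (0.38 ± 0.17, limma adjusted p = 0.248). Hoxb3 had 13.7, 16.9 and 15.3 against 18.8, 24.7 and 32.3, also without overlap (0.66, limma adjusted p = 0.345), but 52.9% of its exon bases are antisense to Hoxb3os. Hoxb5 had 41.1, 43.3 and 43.8 against 41.8, 73.1 and 78.7, with Otud1-/- 1 inside the wild type range (0.53, limma adjusted p = 0.369). In all, the labels did not overlap in 4 of 29 Hox genes, each higher in the libraries labelled Otud1-/-, against 26.3% of all tested genes in either direction and 13% in that one.

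Among the remaining members, Hoxa7 had 759, 1162 and 1511 normalised reads in wild type 1 to 3 against 717, 970 and 952 in Otud1-/- 1 to 3. Its number 1 libraries were the lowest of each label (-0.34 ± 0.25, limma adjusted p = 0.502), and 20.4% of its exon bases are shared with Hoxaas3. Hoxa4 had 10.5, 21.6 and 13.3 against 25.6, 31.5 and 18.2, with the labels overlapping (0.72, limma adjusted p = 0.359). Hoxa5, which in the gut acts mainly in the mesenchyme, was nearly level at 355, 394 and 355 against 416, 377 and 452. Hoxc4, the only Hoxc gene with values, had 1.88 to 6.33 normalised reads in wild type 1 to 3 against 3.37 to 4.04 in Otud1-/- 1 to 3, at the floor of what this depth measures. Hoxa2, Hoxa3, Hoxa6, Hoxb2, Hoxb4, Hoxb6, Hoxb7 and Hoxb8 had changes between -0.56 (Hoxb7) and 0.53 (Hoxb4), none called.

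**Figure D4:**
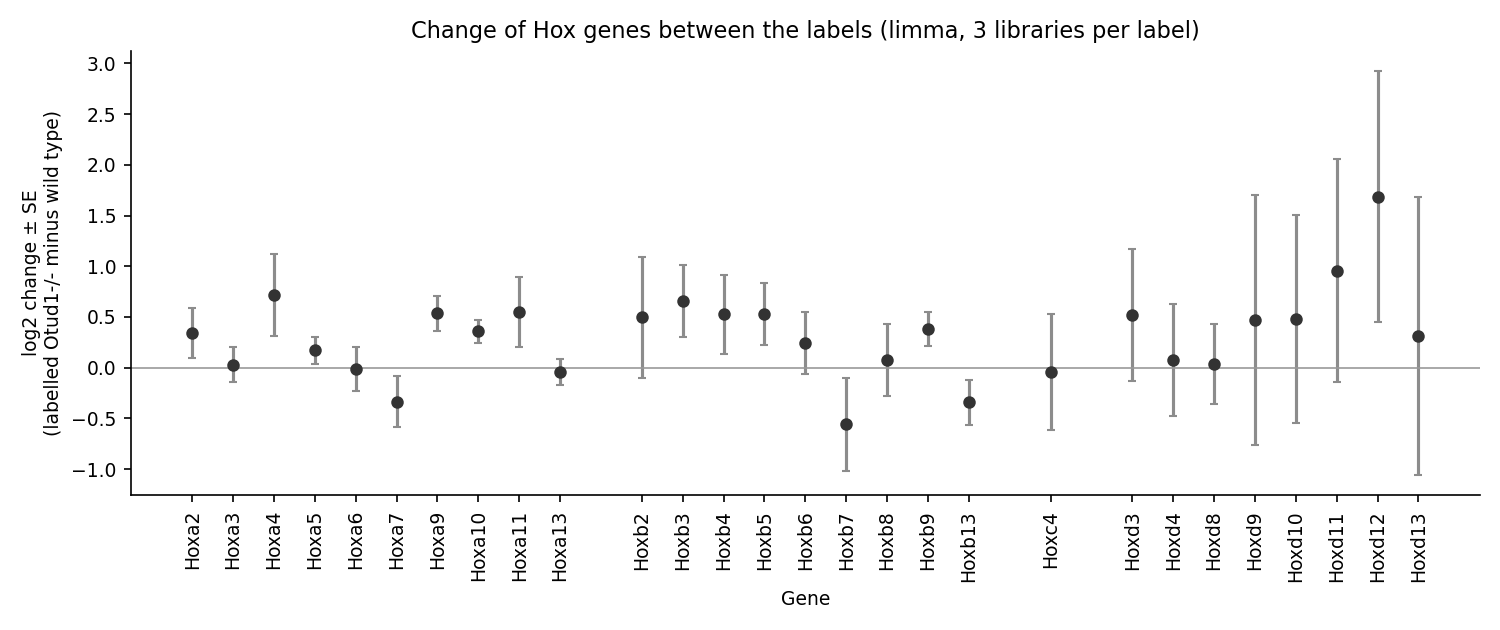
Log2 change between the labels (Otud1-/- minus wild type) of the Hox genes described here, with limma's standard error (3 libraries per label). The longest bars belong to Hoxd9 to Hoxd13 and no gene was called; the changes of Hoxd9, Hoxd10 and Hoxd13 turned negative when wild type 1 or Otud1-/- 1 was left out.

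The directions of Hoxd9, Hoxd10, Hoxd11 and Hoxd13 between the labels rested on single libraries. Hoxd9 changed from 0.47 to -0.66 without wild type 1 and to -0.28 without Otud1-/- 1, and Hoxd10 from 0.48 to -0.39 and -0.25. Hoxd13 changed from 0.31 to -0.74 without wild type 1. Hoxd12 had the largest fitted change of all Hox genes (1.69 ± 1.24, limma adjusted p = 0.506), which was 0.85 without wild type 1 and 0.53 without Otud1-/- 1, stayed positive without any single library, and was -0.31 without both of them. Hoxd11 went from 0.96 ± 1.1 (limma adjusted p = 0.685) to -0.02 without wild type 1.

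Hox proteins bind DNA together with the TALE homeodomain cofactors of the Pbx, Meis and Pknox families. Meis2 had 109, 140 and 137 against 226, 241 and 237 (0.87 ± 0.18, limma adjusted p = 0.0595), and Meis1 had 74.9, 67.7 and 44.9 against 102, 129 and 143 (1.004 ± 0.27, limma adjusted p = 0.104). Neither Meis gene was called. In both, the libraries separated by label, which 13% of the tested genes did in the same direction and 26.3% in either. Among the 9 listed cofactors, 7 changes were positive and 2 negative, and 3 genes separated in this way. Another 1 of the 9 was called higher (limma), as were 0.282% of the genes tested. Pbx3 had 186, 221 and 199 against 215, 285 and 272, overlapping through Otud1-/- 1, and was not called (0.34, limma adjusted p = 0.324).

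Markers of the tissue layers were set beside these genes. All 10 smooth muscle markers were higher in every library labelled Otud1-/- than in every library labelled wild type, as were 13% of all tested genes. Of the markers 3 were called (Myl9 1.24, Synm 1.32 and Myh11 1.30, limma adjusted p = 0.0440, 0.0440 and 0.0492), against 0.282% of all tested genes called higher. Each of these calls was lost in 9 to 11 of 20 alternatives. Over the 10 markers the summed normalised reads were 39505, 40892 and 37057 in wild type 1 to 3, then 61185, 125880 and 92772 in Otud1-/- 1 to 3. The 10 epithelial markers summed to 370540 to 430880 in wild type 1 to 3 against 233570 to 364670 in Otud1-/- 1 to 3. Of them 0 were called (limma). An unadjusted p under 0.05 was found for 7, all lower, against 19.5% of all tested genes in either direction. The part of the tissue layers in the values of Hoxa9, Hoxa10, Hoxb9 and the Meis genes was not tested. The muscle sum was highest in Otud1-/- 2, a library low in Hoxd13. It was nearly equal in wild type 1 and wild type 3, which differed most in Hoxd13 among the libraries of that label. The part of the tissue layers in the 5′ Hoxd values was not tested either.

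The Polycomb and Trithorax proteins keep Hox genes silent or active. Of 23 such genes, 0 were called (limma), against 0.949% of all tested genes. An unadjusted p under 0.05 was found for 3 of them, against 19.5% of all tested genes. Ezh2, the histone H3 lysine methyltransferase of Polycomb complex PRC2, had 504, 555 and 524 normalised reads against 991, 731 and 780, without overlap (0.65 ± 0.14, limma adjusted p = 0.0635). Cbx2, which reads that mark, had 47.5, 103 and 107 against 309, 151 and 138 (1.20 ± 0.41, limma adjusted p = 0.170). Cbx2, like the 5′ Hoxd genes, was lowest in wild type 1 and highest in Otud1-/- 1, but Otud1-/- 2 was not low.

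The ParaHox genes Cdx1 and Cdx2 act upstream of Hox genes and set intestinal identity, and Pdx1 marks the duodenum and pancreas. Of 6 listed genes 3 had values and 0 were called (limma). Pdx1 had an unadjusted p of 0.0460 (limma), where 19.5% of all tested genes had a p under 0.05. Cdx2 had 3375, 2117 and 2076 normalised reads in wild type 1 to 3, then 836, 3466 and 2353 in Otud1-/- 1 to 3. Its highest libraries, Otud1-/- 2 and wild type 1, were those with the fewest 5′ Hoxd reads, and its lowest library, Otud1-/- 1, was the one with the most. This inverse order did not hold throughout. Otud1-/- 3 had more Cdx2 than wild type 2, and also more reads summed over Hoxd9 to Hoxd13 (1175 against 924). Krt20, an epithelial marker, was likewise highest in wild type 1 and Otud1-/- 2 and lowest in Otud1-/- 1. The relation of Cdx2 to the Hoxd values was not tested. Cdx1 had 5265, 5369 and 7084 against 3947, 4879 and 5813, and did not share the order of Cdx2.

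Among noncoding RNAs and genes that flank or lie in the clusters, 12 of 23 listed had values and 0 were called (limma). An unadjusted p under 0.05 was found for 2, against 19.5% of all tested genes. Hoxa11os had 1020, 1190 and 1102 normalised reads against 1466, 1622 and 1452, without overlap (0.46 ± 0.11, limma adjusted p = 0.0844). Evx1, the homeobox gene beyond Hoxa13, had 63.3, 217 and 158 against 826, 429 and 279, also without overlap (1.83 ± 0.59, limma adjusted p = 0.184). In Evx1 wild type 1 was the lowest and Otud1-/- 1 the highest library, as in Evx2, but Otud1-/- 2 was second highest. Gdf11 is a signal of the TGF-beta family that sets posterior Hox domains in the embryo. It had 133, 173 and 203 against 694, 361 and 285 (1.31 ± 0.33, limma adjusted p = 0.0993). Of the 11 tested genes of retinoic acid and posterior signals, 0 were called (limma). An unadjusted p under 0.05 was found for 2 of the 11, against 19.5% of all tested genes.

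Genes that mark gut regions were set beside the Hox profile. Of 22 listed, 19 had values and 0 were called (limma), with 10 positive and 9 negative changes. An unadjusted p under 0.05 was found for 4, against 19.5% of all tested genes. Cyp2c55, a cytochrome P450 of the proximal mouse colon, had 30.6, 32.9 and 28.6 normalised reads in wild type 1 to 3, then 80.2, 2112 and 423 in Otud1-/- 1 to 3 (3.72 ± 1.20, limma adjusted p = 0.197). Fabp2, a fatty acid binding protein of small intestine and proximal colon, had 653, 289 and 423, and 270, 3555 and 1352. Ang4, an antimicrobial ribonuclease, had 739, 179 and 170, and 713, 3178 and 1251. All of these were highest in Otud1-/- 2 and second highest in Otud1-/- 3. Otud1-/- 2 is the library with the lowest Hoxb13 and the lowest posterior share, and Otud1-/- 3 was second lowest in both. The posterior reads are mostly Hoxb13, so these are not separate measures. Wild type 1, low in 5′ Hoxd genes, had Cyp2c55 at the level of the other wild type libraries. Its Fabp2 (653) and Ang4 (739) were the highest among the libraries labelled wild type.

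The markers of other regions did not give 1 order of the libraries. Car4, a carbonic anhydrase of surface colonocytes, had 26986, 17591 and 25538 normalised reads against 2429, 14378 and 9431, without overlap (-1.73 ± 0.71, limma adjusted p = 0.270). Insl5, a peptide of colonic L cells, had 828, 704 and 1163 against 610, 573 and 839. Squamous markers of the anal canal, at the posterior end, summed to 132, 312 and 605 in wild type 1 to 3, then to 1792, 664 and 344 in Otud1-/- 1 to 3, with no value analysed for Trp63 and Sprr3. That sum, like Hoxd13, was lowest in wild type 1 and highest in Otud1-/- 1, but it was not low in Otud1-/- 2. Its part in the Hoxd values was not tested.

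**Figure D5:**
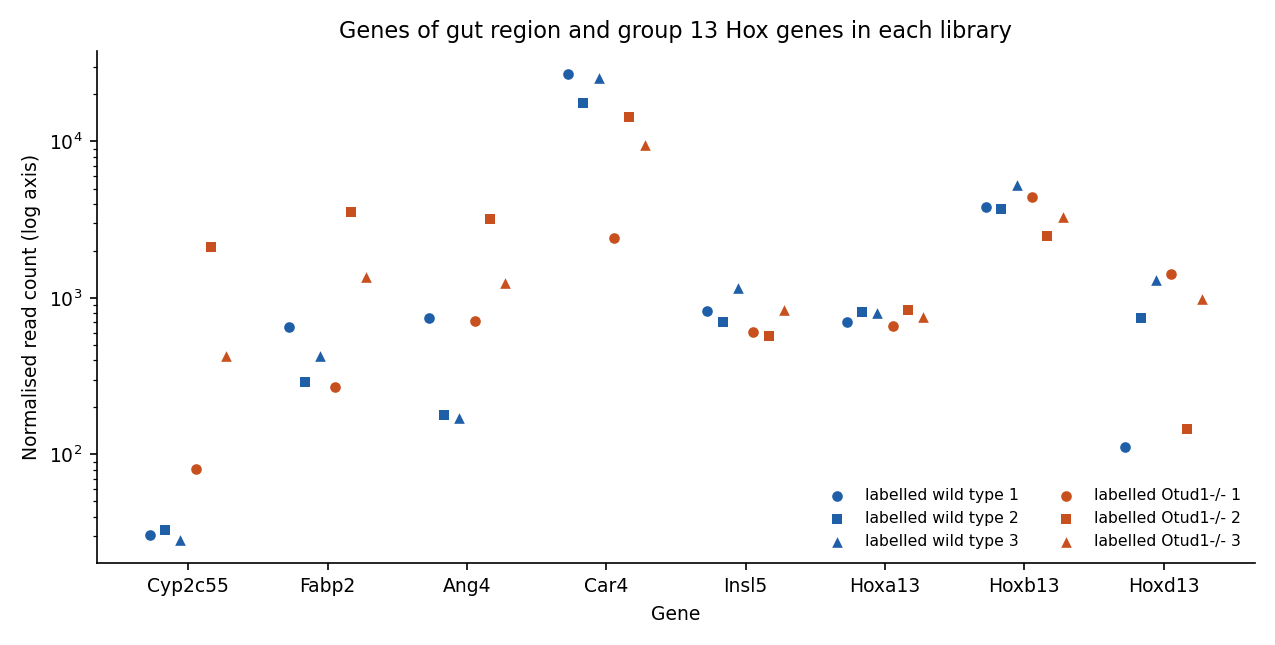
Normalised read count (log axis) of 5 gut region genes and the 3 measured group 13 Hox genes; each point is 1 library, coloured by label and shaped by number. Cyp2c55, Fabp2 and Ang4 are highest in Otud1-/- 2, where Hoxb13 and Hoxd13 are low. Wild type 1 has low Hoxd13 with Cyp2c55 at the level of the other wild type libraries, while its Fabp2 and Ang4 are the highest of that label.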

How the data were processed

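Bulk RNA sequencing of 6 libraries was analysed, grouped by their titles and genotype labels. Per the submitters' processing notes the genome was mm10. An aligner, a counter, a strand setting or a batch is not given in the sources used here. What the authors deposited is a normalised signal for each gene, their read counts divided by a size factor of the library: 100% of values were whole multiples of 1 step per library (tolerance 0.001 of a read), which gave back the reads. IDs were matched to GENCODE vM21 without version (21336 matched, 38 did not), and levels per kb used its merged exons.

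Genes at 1 or more in at least 3 libraries (21281, all 29 Hox genes among them) were tested with limma 3.58.1 (trend, robust; R 4.3.3) on log2(value + 1), two-sided, Benjamini-Hochberg over all of them, called under 0.05. This scale understates changes of low genes. Alternatives were other filters, pseudocounts, scalings and weights, a replicate block, edgeR 4.0.16, DESeq2 1.42.0, limma-voom and omitted libraries; the tests were tried on simulated data. Libraries differed from each other by more than counting error (lowest chi-square over its degrees of freedom 17.7). Values in every library are given for Otud1, called members, the 8 smallest p, groups 12 and 13 and the 2 highest per kb in each cluster. Hoxa5 was named outside these rules. Other members named with values (Hoxd3, Hoxd4 and Hoxd8 to Hoxd11), Aldh1a3 and T were added after values were seen. From other lists, called genes and up to 4 of the smallest p are named, beside Evx2, Cdx1, Car4, Fabp2 and Insl5; a few genes that these rules pick are not reported here. Members and lists were chosen with earlier results of these data known.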

Additional observations from a re-analysis of the deposited data

How the results depend on the processing

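No Hox gene was called in any of the 20 alternatives, with a smallest adjusted p between 0.0519 (Hoxa10, scaling to total reads) and 0.283. The count of genes called between the labels, 202, was 122 with a filter at a mean of 5, 118 with a pseudocount of 0.1, 413 with total reads, 564 with sample weights, 0 without trend and robust, 102 with edgeR, 1420 with DESeq2, 77 with limma-voom, 10 to 340 without single libraries and 394 without wild type 1 and Otud1-/- 1. The replicate block gave 18 genes and no Hox gene; the numbers do not pair the libraries (correlations of deviations -0.264, -0.100 and -0.0877 for numbers 1, 2 and 3). The median log2 change of the tested Hox genes, 0.34, was 0.55 with total reads (where the median of all genes was 0.22), 0.19 to 0.36 without single libraries and 0.14 without wild type 1 and Otud1-/- 1. The difference in posterior share of Hox reads, -4.62 points, was 0.87 with groups 9 to 13, -7.96 with group 13 alone, -7.74 to -0.92 without single libraries and -7.86 without wild type 1 and Otud1-/- 1. Without single libraries some changes took both signs: Hoxd9 -0.66 to 1.31, Hoxd10 -0.39 to 1.17, Hoxd11 -0.0197 to 1.68, Hoxd13 -0.74 to 1.31, Hoxd8 -0.24 to 0.19, Hoxa13 -0.13 to 0.0507, Hoxc4 -0.41 to 0.27, Evx2 -0.67 to 2.24 and Cdx2 -0.81 to 0.22. Leaving out wild type 1 and Otud1-/- 1 gave -1.41 for Hoxd9, -1.11 for Hoxd10, -0.69 for Hoxd11, -0.31 for Hoxd12, -1.37 for Hoxd13, 0.30 for Hoxc4, -1.22 for Evx2 and 0.45 for Cdx2. Total reads gave 0.17 for Hoxa13 and 0.12 for Hoxc4, sample weights 0.11 for Hoxc4 and -0.0221 for Hoxd8, and quantile normalisation -0.14 for Hoxd8. Of the other values for 41 named genes, 732 kept direction and call, 40 lost and 18 gained it; Meis1, Meis2, Ezh2, Cbx2, Hoxa11os, Evx1, Gdf11 and Cyp2c55 passed with DESeq2. The causes were not tested. Depth limits Hoxc4, Hoxd3 and the 5′ Hoxd genes in wild type 1, which rest on few reads.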

Other observations

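Other genes that were low in wild type 1 are given here as values, named after they were seen. Aldh1a3, which makes retinoic acid, had 426, 1923 and 1818 normalised reads in wild type 1 to 3, then 2518, 544 and 780 in Otud1-/- 1 to 3. Its 2 lowest libraries and its highest were those of Hoxd9, Hoxd10, Hoxd11 and Hoxd13. T (brachyury), a mesoderm and tail bud factor, was listed at 0 in wild type 1 and at 62.1 and 74.4 in the other wild type libraries, while Otud1-/- 1 to 3 had 475, 154 and 88.8. The 15 listed stem cell and Wnt target genes summed to 4677, 9487 and 8507 in wild type 1 to 3, then to 31984, 13610 and 12174 in Otud1-/- 1 to 3. Wild type 1 was lowest and Otud1-/- 1 highest, as in the 5′ Hoxd genes, but Otud1-/- 2 was second highest. Not every gene of the list had the order of the sum. Ephb2 (1093 and 1141) and Lrig1 (887 and 1199) were lowest in wild type 1 and second lowest in Otud1-/- 2. The relation of all these genes to the Hoxd values was not tested.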
